A study of Mus musculus with 4 samples.

Results

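NKX2.2 occupancy at its own gene and at the genes of its nearest homeobox relatives was examined in alphaTC6, a mouse line of glucagon-producing pancreatic alpha cells. The genes were chosen by name, with earlier results of these data known. They are 10 of the 21887 protein-coding genes in the annotation: 7 NKX2 genes (Nkx2-1, Nkx2-2, Nkx2-3, Nkx2-4, Nkx2-5, Nkx2-6 and Nkx2-9) and 3 NKX6 genes (Nkx6-1, Nkx6-2 and Nkx6-3). The study holds 2 samples of chromatin immunoprecipitated with an antibody to NKX2.2 and 2 input samples of unenriched chromatin, all from cells of genotype WT and the same line, so no cell without NKX2.2 serves as a control. A single list of 7384 peak summits was analysed, each the base of highest enrichment in a peak that the authors called with MACS2 against input. Each summit carries a deposited score, which has no header and is taken here as the authors' −log10 q-value from the layout of MACS2 summit lists and its lowest value. The list has no value per library, so sequencing depth and the spread between replicates are unknown, no test was run, and a score says how firmly a peak was called, not how much protein was bound.

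Homeobox genes of the NKX2 and NKX6 families encode transcription factors that bind DNA through a homeodomain and set cell identity in the gut, heart, lung, thyroid and ventral nervous system. NKX2.2 is required for islet endocrine cells to form in the mouse pancreas: without it beta cells are lost, alpha cells are reduced and ghrelin cells accumulate. NKX6.1 is known as a beta cell factor that is kept silent in alpha cells, and genes of transcription factors are often bound by their own product.

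Nkx2-2 was the only gene of the 10 with a summit in the gene body, and it had 3. The share of all protein-coding genes with a summit in the gene body was 13.4%. Nkx2-2 is also the longest of the 10, at 18.95 kb, with the next at 6.325 kb. Among genes in the length range of the 10, a set chosen after seeing the data, the gene body share was 8.20%. With 10 kb added on each side, Nkx2-2 and Nkx6-1 had a summit, 2 of 10 genes or 20%, against 25.8% of all protein-coding genes. Within 50 kb, Nkx2-3 and Nkx6-3 joined them, giving 4 of 10 genes against 43.8%. Within 100 kb, Nkx2-5 was added, giving 5 of 10 genes against 55.3%. With all summits counted, at no distance did the family's share differ from that of all genes by more than 5.83 percentage points. Against all genes, these counts are thus near the background and single out no distance. In the length range of the 10, the shares were 24.6% within 10 kb, 46.9% within 50 kb and 59.9% within 100 kb. At 50 and 100 kb the family lay farther below these than below the shares of all genes, which was not tested. Nkx2-1, Nkx2-4, Nkx2-6, Nkx2-9 and Nkx6-2 had no summit within 100 kb.

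**Figure D1:**
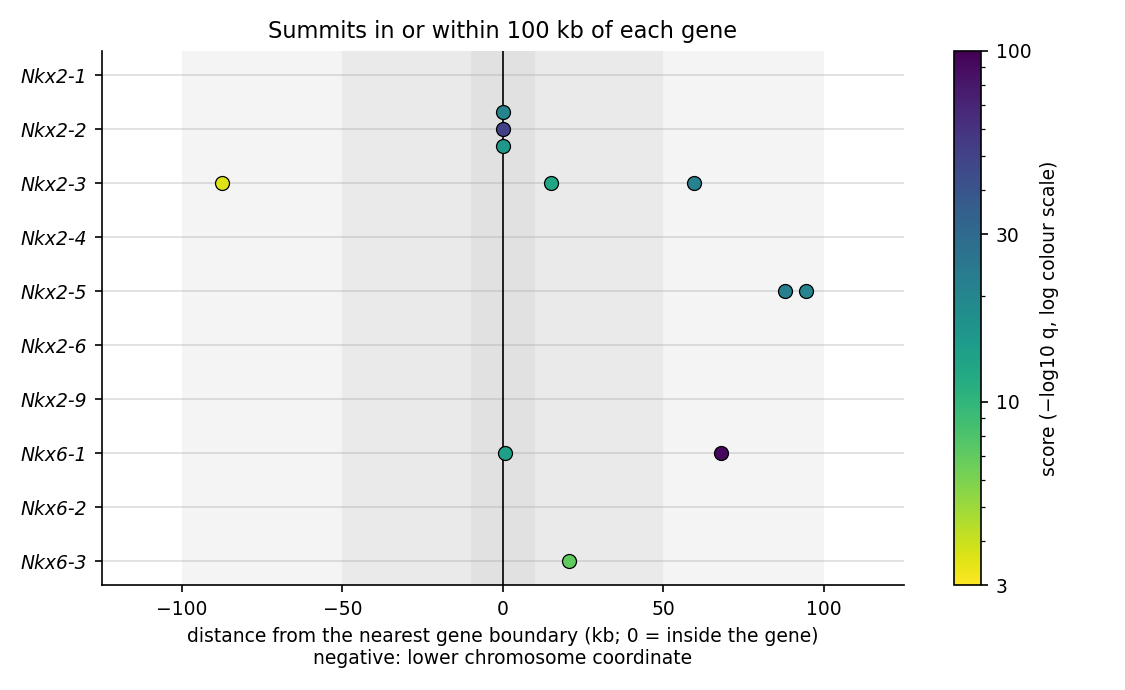
Summits in or within 100 kb of each of the 10 genes, by distance from the nearest gene boundary in kb, with the score as colour and the windows of 10, 50 and 100 kb shaded. The 3 summits inside Nkx2-2 all sit at 0 and are set apart vertically, and 5 genes have none.

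To show the DNA at these loci, the bases just before the annotated start were taken from the RefSeq promoter windows for GRCm38.p6, which hold 8 of the 10 genes; Nkx2-6 and Nkx6-3 were not matched. Each sequence below is the 250 bases before a start, 5′ to 3′ on the gene's strand. Capitals mark the searched words, read on both strands: AAGTG, the core that NKX2 proteins bind, TAAGTG and TNAAGTGG, longer forms that contain it, and TAATTA, a general homeodomain word. The first pair sets Nkx2-2 (chr2:147186403-147186652, minus strand) beside its neighbour Nkx2-4 (chr2:147085346-147085595, minus strand). Nkx6-1 (chr5:101664712-101664961, minus strand) is the other family gene with a summit within 10 kb. 6430503K07Rik (chr2:147187174-147187423, plus strand), a noncoding gene, is shown because a summit counted for Nkx2-2 falls in its window, and Cuta (chr17:26939459-26939708, minus strand) because it holds a summit counted for Nkx2-5.
Nkx2-2: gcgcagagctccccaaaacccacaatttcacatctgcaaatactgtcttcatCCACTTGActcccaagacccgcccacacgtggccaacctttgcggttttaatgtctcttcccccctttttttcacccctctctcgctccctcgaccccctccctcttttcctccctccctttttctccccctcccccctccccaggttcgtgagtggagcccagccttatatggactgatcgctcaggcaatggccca
Nkx2-4: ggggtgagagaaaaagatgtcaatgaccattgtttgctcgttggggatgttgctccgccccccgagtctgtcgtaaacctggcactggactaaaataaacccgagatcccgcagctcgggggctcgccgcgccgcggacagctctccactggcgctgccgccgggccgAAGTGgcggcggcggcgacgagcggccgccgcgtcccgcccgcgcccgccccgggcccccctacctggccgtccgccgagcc
Nkx6-1: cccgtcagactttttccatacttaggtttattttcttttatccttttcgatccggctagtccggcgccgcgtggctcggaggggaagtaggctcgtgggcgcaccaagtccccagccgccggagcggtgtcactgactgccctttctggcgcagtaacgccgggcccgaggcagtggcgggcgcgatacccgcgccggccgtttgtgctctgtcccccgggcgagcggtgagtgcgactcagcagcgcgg
6430503K07Rik: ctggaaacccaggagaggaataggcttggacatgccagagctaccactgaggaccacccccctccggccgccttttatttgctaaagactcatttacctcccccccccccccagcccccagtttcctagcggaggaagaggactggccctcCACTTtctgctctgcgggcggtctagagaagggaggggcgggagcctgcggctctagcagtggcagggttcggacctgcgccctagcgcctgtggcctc
Cuta: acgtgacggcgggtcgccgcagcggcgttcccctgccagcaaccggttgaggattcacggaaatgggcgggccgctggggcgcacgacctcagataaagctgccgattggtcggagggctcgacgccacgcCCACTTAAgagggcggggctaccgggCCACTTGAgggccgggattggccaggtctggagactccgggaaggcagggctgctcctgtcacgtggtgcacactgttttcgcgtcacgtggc

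No summit fell in the 250 bases before the start of any of the 8 matched family genes. Among all 32851 promoter windows, 1336, or 4.07%, held a summit. The Nkx2-2 window holds 1 AAGTG, read on the opposite strand from base 54 of the window, and this match is also a TNAAGTGG. A TNAAGTGG occurs in 2.74% of all windows of this length. Nkx2-4 has 1 AAGTG, from base 169, with neither longer form, and Nkx6-1 has none of the words. Across the 8 family windows, 4 hold AAGTG (Nkx2-1, Nkx2-2, Nkx2-4 and Nkx2-9), against 40.7% of all windows. TAAGTG occurs only in the window of Nkx2-1, which had no summit within 100 kb, against 7.92% of all windows, and no family window holds TAATTA, against 4.84%. These are matches of letters and say nothing of whether a protein sits there.

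The family windows also differed in composition. Their GC content ran from 49.2% to 70.4% with a median of 60.8%, against a median of 52.4% over all windows, and 6 of the 8 were above that median, with Nkx2-1 and Nkx2-5 below it. All 8 held more CpG pairs than the median window, with 8 to 33 per window and a median of 13.5, against 6, a difference that was not tested.

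The 3 summits at Nkx2-2 (gene ID 18088, chr2:147176485-147195434) lay at positions 147187353, 147190804 and 147195290 of chromosome 2, with scores of 15.4, 51.4 and 20.6. The middle one had the highest score, and the spans between neighbouring summits were 3451 and 4486 bp. The 3 summits thus lie in 7.94 kb of the 18.95 kb gene. Their ranks in the list of 7384 were 3319, 857 and 2532, which puts the first near the middle of the list and the highest at the 88.4th percentile. Of all protein-coding genes, 2.02% had 3 or more summits in the gene or within 10 kb, and 3.67% had a summit there that scored at least as high as the highest at Nkx2-2.

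The gene body of Nkx2-2 in the annotation spans both sides of the start used for its promoter window. Measured from that start, all 3 summits lay upstream, at 0.951, 4.40 and 8.89 kb, and none lay in the part of the gene after the start. They count as inside the gene because the annotated gene, which combines several transcripts, reaches beyond this start. Its upstream end is at 147195434, and the summit at 147195290 lies close to that end. All 3 also lay inside Nkx2-2os, a noncoding gene that overlaps Nkx2-2 and runs on the opposite strand. The summit nearest the start, at 147187353, lay 71 bp before the start of 6430503K07Rik, whose start is 1022 bp from that of Nkx2-2 and points the other way. In the printed window of 6430503K07Rik this summit is base 180, and the centre of the only AAGTG there is 26 bp from it. An AAGTG occurred in 19.8% of the 100 bases around promoter summits. It occurred in 18.2% of all promoters in the 100 bases from 51 to 150 before the start. Sequence at the other 2 summits was not used here. Which of the overlapping genes a summit belongs to cannot be read from these positions.

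Nkx2-4 (gene ID 228731, chr2:147083337-147085439), which is known from the hypothalamus and thyroid, is the neighbour of Nkx2-2 on chromosome 2 and lies 91.0 kb from it. It had no summit in the gene or within 100 kb. Its nearest summit was the one at 147187353 inside Nkx2-2, 101.9 kb away and just outside the widest window. On the other side the next summit was 146.1 kb away, at position 146937278 with a score of 12.1, inside the gene Kiz. The interval between those summits is 250.1 kb long and holds Nkx2-4 and Xrn2, an RNA exonuclease gene. Of the 596 intervals between neighbouring summits on chromosome 2, 147 were at least that long, so an interval of this size is common on the chromosome. The 2 neighbours therefore differed plainly in this list, with 3 summits at Nkx2-2 and 0 at Nkx2-4, but with 1 list and no replicate value that difference was not tested.

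On the side of Nkx2-2 away from Nkx2-4, the next summit was 680.7 kb away, at 147876120 with a score of 8.69, beyond Pax1, a gene of the axial skeleton and thymus, which had none within 100 kb. From 146937278 to 147876120, a stretch of 938.8 kb, the 3 summits at Nkx2-2 were the only ones. The summits that follow lead to Foxa2, an endoderm factor gene 847.4 kb from Nkx2-2, which had 6 summits in the gene or within 100 kb.

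**Figure D2:**
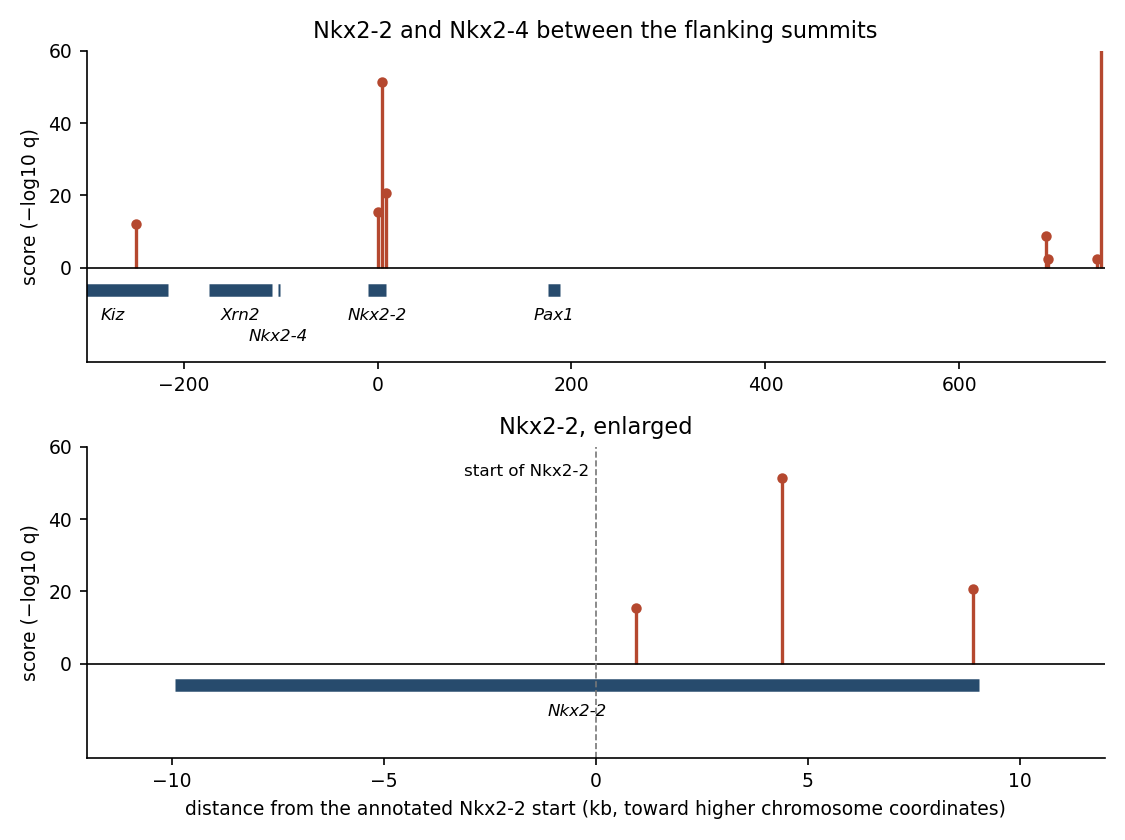
Score (−log10 q) of each summit by distance in kb from the annotated Nkx2-2 start, for the stretch between the flanking summits (top) and for Nkx2-2 alone (bottom), with protein-coding genes as bars. The 3 summits of Nkx2-2 lie upstream of the start used for its promoter window but inside the annotated gene. Upstream is toward higher coordinates because the gene is on the minus strand. Nkx2-4 has none.

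Nkx6-1 (gene ID 18096, chr5:101659184-101664711) had 2 summits within 100 kb, both upstream of its start. The nearer, at position 101665272 of chromosome 5, lay 561 bp before the start. It scored 13.5 and ranked 3756, near the middle of the list. It lies outside the printed window, which reaches 250 bases back. The other was at 101732810, 68.1 kb upstream, with a score of 92.96 and rank 406. This was the highest score within 100 kb of any of the 10 genes, above the highest at Nkx2-2. A summit of at least that score lay within 100 kb of 6.6% of all protein-coding genes. It fell inside Gm42134 and the noncoding gene 9430085M18Rik, and Nkx6-1 was not the protein-coding gene nearest to it. Apart from the nearer summit, none lay between Nkx6-1 and that position, and on the other side of the gene the next was 226.7 kb away.

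The other NKX6 genes had less. Nkx6-3 (gene ID 74561, chr8:23153271-23158948), known from the stomach epithelium, had 1 summit within 100 kb, 20.8 kb away at position 23179700 of chromosome 8. It scored 7.04, lay inside Gpat4, a gene of glycerolipid synthesis, and ranked 5896. Nkx6-2 (gene ID 14912, chr7:139579376-139582797), known from oligodendrocytes and the ventral spinal cord, had none. Its nearest summit was 100.998 kb away, the case closest to the 100 kb limit from outside, at position 139683795 inside Cfap46 with a score of 22.2. Inpp5a, whose annotated end overlaps Nkx6-2, had 2 summits in the gene or within 10 kb, but these lay 110.7 kb or more from Nkx6-2.

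Of the other NKX2 genes, Nkx2-3 (gene ID 18089, chr19:43612325-43615892), known from the gut wall and spleen, had 3 summits within 100 kb. Their scores were 3.61 at 87.3 kb, 12.6 at 15.1 kb and 21.1 at 59.6 kb. Only the one at 15.1 kb, position 43631002 of chromosome 19, had Nkx2-3 as its nearest protein-coding gene, and it lay inside the noncoding gene Gm34922. The others lay 381 bp from Got1, an aspartate aminotransferase gene, and 501 bp from Slc25a28, a mitochondrial iron carrier gene. Nkx2-3 and Nkx2-2 thus had the same number of summits within 100 kb, but those of Nkx2-2 were in its annotated span, upstream of the start used here.

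Nkx2-5 (gene ID 18091, chr17:26838664-26844988), a cardiac factor gene, had 2 summits within 100 kb and none within 50 kb. One, scoring 22.7, lay 88.0 kb away at position 26933035 of chromosome 17. The other, scoring 20.7, lay 94.6 kb away at 26939569 and was the summit closest to the 100 kb limit from inside. Both lay at promoters of other genes. The first was 92 bp before the start of Phf1, a Polycomb-associated gene, whose window holds none of the searched words. The second was 111 bp before a start of Cuta, at base 140 of the printed Cuta window. That window holds 2 TNAAGTGG matches, on the opposite strand. The first of them is also a TAAGTG, and the centre of its AAGTG is 5 bp from the summit. Of the windows that hold a summit, 38.8% had an AAGTG, 6.29% a TAAGTG and 3.14% a TNAAGTGG. Over all windows the shares were 40.7%, 7.92% and 2.74%, and the differences were not tested. In the 100 bases around promoter summits, TAAGTG occurred in 2.02% and TNAAGTGG in 1.43%. In the 100 bases from 51 to 150 before the start of all promoters, these shares were 3.19% and 1.06%, also not tested. TNAAGTGG occurs more than once in 0.0700% of all windows of this length and in 3 of the 1336 windows that hold a summit, or 0.225%. These 3 include 2 overlapping windows of Cuta that share the summit at 26939569 and its matches, so they are not 3 separate sites.

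Nkx2-1 (gene ID 21869, chr12:56531935-56536908), a lung, thyroid and forebrain factor gene, and Nkx2-9 (gene ID 18094, chr12:56611389-56613569), expressed in the ventral neural tube, are also neighbours, 74.5 kb apart on chromosome 12. Neither had a summit within 100 kb, and they share the same nearest one, at position 56329036 inside Mbip with a score of 25.3. It was 202.9 kb from Nkx2-1 and 282.4 kb from Nkx2-9. Both genes lie in an interval of 1168 kb with no summit, which also holds Pax9, a tooth and thymus factor gene. On chromosome 12, 26 of 298 intervals between neighbouring summits were at least that long. Of the protein-coding genes on that chromosome, 75.6% had a summit as near as or nearer than that of Nkx2-1, and 81.1% than that of Nkx2-9.

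Nkx2-6 (gene ID 18092, chr14:69171802-69175540), a gene of the pharyngeal endoderm and early heart, was the farthest from any summit, at 734.1 kb. Its nearest summit was at position 69909632 of chromosome 14, inside Pebp4, with a score of 9.61. Chromosome 14 held 76 summits in all, and only 21.6% of its protein-coding genes had a summit in or within 100 kb. The interval that holds Nkx2-6 was 1554 kb, and 23 of the 75 intervals on this chromosome were at least that long. On its own chromosome 64.9% of genes had a summit as near as or nearer than that of Nkx2-6, against 85.9% over all chromosomes.

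By distance to the nearest summit the order was therefore Nkx2-2 (inside), Nkx6-1, Nkx2-3, Nkx6-3, Nkx2-5, Nkx6-2, Nkx2-4, Nkx2-1, Nkx2-9 and Nkx2-6. The median over all protein-coding genes was 71.5 kb. The first 4 genes of this order were nearer than that and the other 6 were farther, with a family median of 94.5 kb. Nkx2-5, Nkx6-2 and Nkx2-4 lay 88.0 to 101.9 kb from a summit and cannot be put in order with confidence, as a single added or lost peak could change it. The place of Nkx6-1 also rests on a single peak. Its next summit was 68.1 kb away, farther than the nearest summits of Nkx2-3 and Nkx6-3. Of all protein-coding genes, 18.6% had a summit as near as that of Nkx6-1, 28.9% as near as that of Nkx2-3, and 55.6% as near as that of Nkx2-4.

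**Figure D3:**
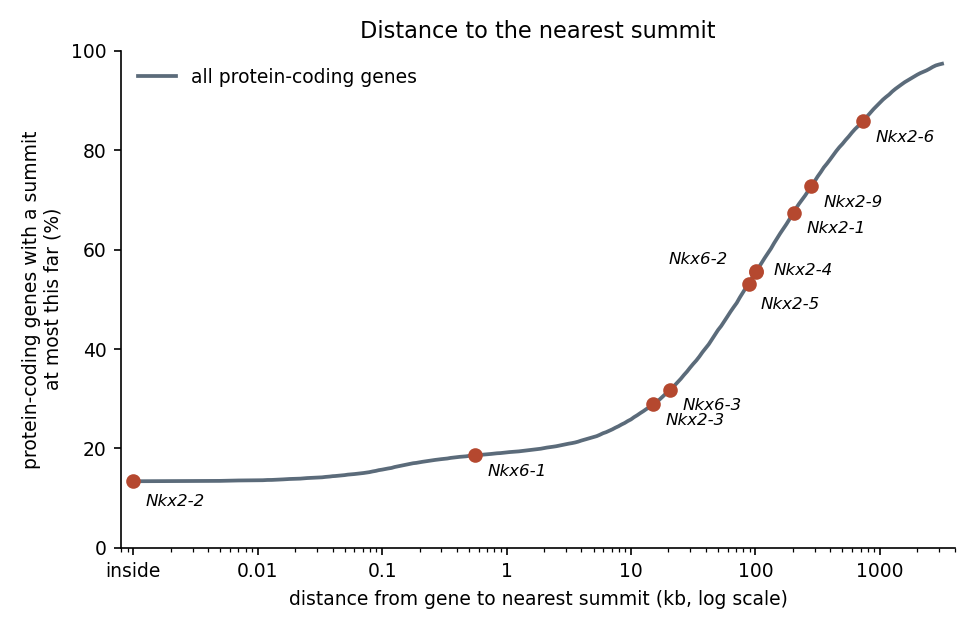
Percent of all 21887 protein-coding genes with a summit at most the distance on the x axis away (log scale, kb), with the 10 genes as points on the curve. Nkx2-2 is at the left end (inside the gene), 4 genes lie below the median distance of 71.5 kb, and Nkx2-6 is farthest at 734.1 kb.

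The 11 distinct summits within 100 kb of a family gene had scores from 3.61 to 92.96 with a median of 20.6, against a median of 13.7 over the whole list. Of these, 7 were above the list median and 4 below it. For 5 of the 11, a family gene was the nearest protein-coding gene: the 3 at Nkx2-2, the summit 561 bp from Nkx6-1 and the summit 15.1 kb from Nkx2-3. The remaining 6 lay nearer to Got1, Slc25a28, Phf1, Cuta, Gm42134 or Gpat4. Kifc5b, Phf1 and Cuta each had both summits counted for Nkx2-5 in the gene or within 10 kb.

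**Figure D4:**
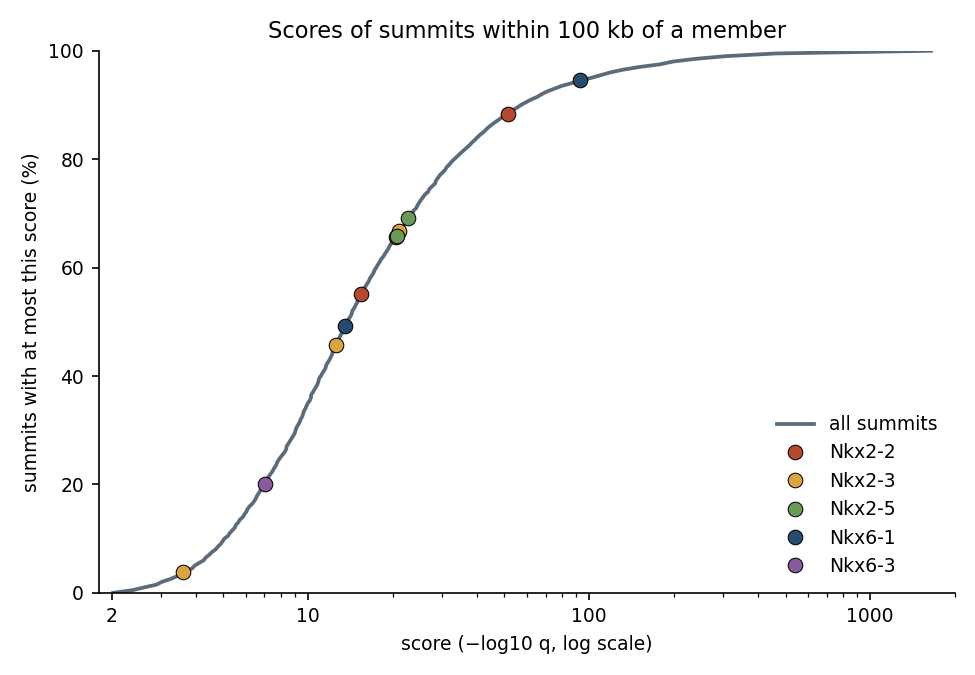
Percent of all 7384 summits with at most the score on the x axis (−log10 q, log scale), with the 11 summits within 100 kb of a family gene as points coloured by gene. The summit 68.1 kb from Nkx6-1 (92.96) and the middle summit of Nkx2-2 (51.4) are the highest.

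For context, the same counts were made for 30 genes of endocrine development factors and NKX2.2 partners, and for 36 other NK-class homeobox genes. Both lists were chosen with earlier results of these data known. Of the endocrine factors, 12 of 30 (40%) had a summit in the gene or within 10 kb, 20 of 30 (66.7%) within 50 kb and 22 of 30 (73.3%) within 100 kb. Of the other NK-class genes, 2 of 36 (5.56%) had one within 10 kb, 11 of 36 (30.6%) within 50 kb and 24 of 36 (66.7%) within 100 kb. Beside these stand 25.8%, 43.8% and 55.3% of all protein-coding genes. The family's 20% at 10 kb and 40% at 50 kb lay between the lists, while its 50% at 100 kb was below both. The order of the lists thus changed with the distance, and the differences between them were not tested. The 5 endocrine factor genes with the highest scores within 10 kb were Pdx1, with a score of 118.6 at 5.98 kb, Myt1, with 103.1, Dnmt3a, with 31.7, Tle3, with 28.5, and Klf4, with 15.4. Only those of Pdx1 and Myt1 were above the highest at Nkx2-2. Of the other NK-class genes only Hlx, a homeobox gene of gut and liver mesenchyme, with a score of 97.4 inside the gene, and Barhl1, with 7.37, had a summit within 10 kb.

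No gene of these lists had exactly 3 summits in the gene or within 10 kb, as Nkx2-2 had. Among the 7 genes with a count 1 away from that, the 3 closest in log10 of their highest score were Tle3, a Groucho corepressor gene (difference 0.256), Myt1, an endocrine zinc finger factor gene (0.302), and Klf4, a Krüppel-like factor gene (0.523). Each had 2 summits. Isl1, with 4, and Pax6, with 5, were the genes with more, and their highest scores within 10 kb were 10.2 and 13.7, below each of the 3 scores at Nkx2-2 (both named after their values were seen).

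**Figure D5:**
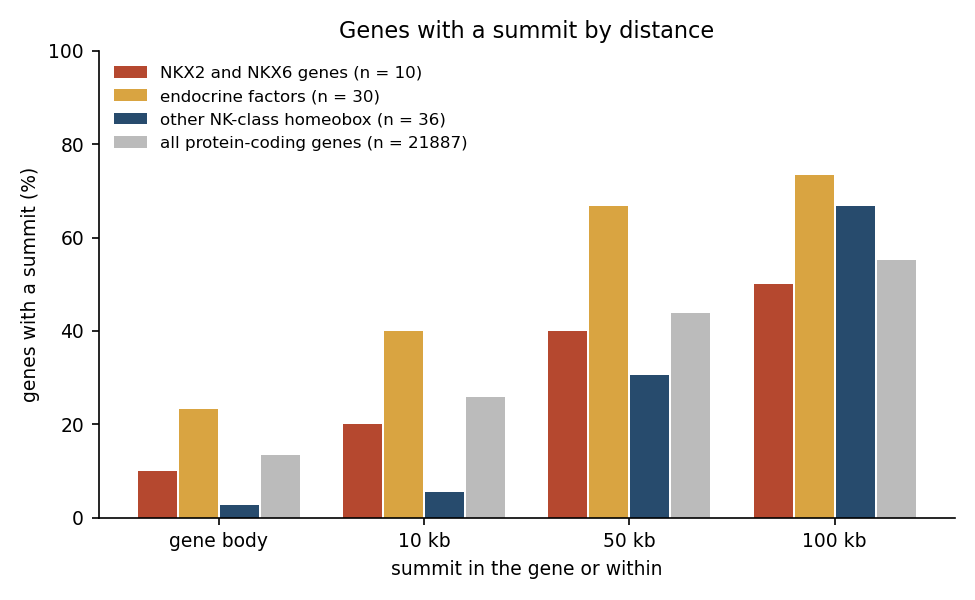
Percent of genes with a summit in the gene body or within 10, 50 and 100 kb, for the NKX2 and NKX6 genes, endocrine factors, other NK-class homeobox genes and all protein-coding genes. The family's bars stay close to those of all genes at each distance (20% and 25.8% within 10 kb).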

How the data were processed

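NKX2.2 ChIP and input were sequenced with 2 samples each, grouped by the sample titles. FastQC, Bowtie2, MACS2 and the build mm10 (GRCm38) are named in the submitters' processing notes. The deposited scores, which have no header, are taken as the authors' −log10 q-values, because MACS2 writes these in that column. The lowest is also just above 2, the −log10 of the threshold in the list's name if that is read as 0.01. Versions, duplicate handling and pooling of replicates are not given in the sources used here. No read was available to recount, so depth and replicate spread are unknown. The members and gene lists were chosen with earlier results of these data known.

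Summit positions were converted to count from 1 and compared with RefSeq gene spans of GRCm38.p6; 7380 summits lie on its chromosomes. A summit counted for every gene whose span, widened by 10, 50 or 100 kb, holds it, so it can count for several genes. Promoter windows came from RefSeq, 1 start per matched member; summit windows need not hold the bound site. All 10 genes were named, with their summits within 10 kb, the highest and nearest within 100 kb, and intervening genes; from the endocrine and NK-class lists, the 5 with the highest score within 10 kb, and the 3 most like Nkx2-2. Genes named outside this rule, such as those at summits beyond 100 kb and other neighbours, were chosen after their values were seen. Counting, distances and word search were tested on simulated data. Alternatives were score minimums of 5, 10 and 20, merging within 500 bp and 1 kb, other assignments, gene sets and windows. Scripts ran in Python 3.11.15 with pandas 2.3.3, numpy 2.4.6, scipy 1.17.1 and, for plots, matplotlib 3.10.9.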

Additional observations from a re-analysis of the deposited data

How the results depend on the processing

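No paired analysis was possible because scores are given per peak and not per library; leaving out a replicate in turn was not possible for the same reason. At Nkx2-2, a score minimum of 20 left 2 of the 3 summits. The other alternatives could not change this count, given the scores, the spacing and the distance to Nkx2-4. The number of members with a summit within 10 kb was 1 at a score minimum of 20, 1 in the gene body alone, 4 at 50 kb and 5 at 100 kb. Within 50 kb it was 1 at a score minimum of 20. Within 100 kb it was 4 at that minimum and 3 where only the nearest protein-coding gene counts. No share of all genes was computed under that nearest-gene rule, so the 3 cannot be set against the 55.3% of all genes. The share of protein-coding genes with a summit fell at a score minimum of 20 to 10.7% within 10 kb, 21.6% within 50 kb and 31.5% within 100 kb. At that minimum the share of the 10 members was below that of all genes within 50 kb and above it within 100 kb. How close the family is to all genes thus depends on the score minimum, and no difference was tested. Over all annotated genes the share was 16.7% within 10 kb. Among genes in the length range of the members, an alternative chosen after seeing the data, it was 24.6% within 10 kb. For the other members, 76 of 108 recounts start from a count of 0, which these alternatives cannot change. Of the remaining 32, 9 moved by over 1.5 times, all at score minimums of 10 or 20. An absent summit shows only that no peak was called at the unknown depth.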
